A study of Rattus norvegicus with 6 samples.

Results

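The BCL2 family and the inhibitor of apoptosis proteins (IAPs) were examined at the transcript level in RUCA-I cells without miR-203. The set was given as 10 gene symbols: Bcl2, Bcl2l1, Bcl2l2, Mcl1, Bak1, Bad, Bid, Bcl2l11, Birc5 and Xiap. A gene was taken where a tested row of the authors' table carried its symbol, and the row with the longest locus stood for the gene. Tested rows were found for 9 of the 10 genes, 11 rows among the 26459 tested. Mcl1 had no tested row under its symbol and was not analysed here.

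RUCA-I is an epithelial line from an endometrial adenocarcinoma of the Lewis rat. Total RNA of untreated cells grown close to confluence in medium with serum was compared between 3 miR-203 -/- lines made independently of each other and 3 batches of wild-type (WT) cells. Each knockout (KO) sample is thus a line of its own, while the WT samples are batches of the parental line, so a difference between lines and the loss of the microRNA cannot be told apart. The sources used here do not say how the KO lines were made. The deposited table has 1 pooled value per group in FPKM, a count of fragments divided by transcript length and library size, so no SD stands behind any value below, and the only test is the authors' own Cuffdiff comparison. Depth per sample is unknown.

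Mitochondrial apoptosis is decided by binding among BCL2 proteins. Bcl2, Bcl2l1 (BCL-XL), Bcl2l2 (BCL-W) and Mcl1 hold the effectors Bak1 and Bax in check, and BH3-only proteins such as Bid, Bad and Bcl2l11 (BIM) free or activate the effectors in response to stress. Once the outer mitochondrial membrane is permeable, cytochrome c assembles the apoptosome with Apaf1 and caspases are activated, a step that the IAP protein Xiap blocks by binding caspases directly. Birc5 (survivin), another IAP, acts mainly in mitosis as a subunit of the chromosomal passenger complex. Work in human cells has reported BCL2L2 and BIRC5 among the mRNAs that miR-203 represses.

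The microRNA that the KO lines lack is shown because its seed, the bases that pair with target mRNAs, defines what it could repress. The sequences of both strands of the rat hairpin are from RefSeq on GRCr8 (chromosome 6), with the seed, bases 2 to 8, in capitals.
rno-miR-203a-3p: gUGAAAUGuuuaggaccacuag
rno-miR-203a-5p: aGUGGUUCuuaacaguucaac
Among the 724 mature rat microRNAs in that table, only miR-203a-3p carried its seed. No row of the deposited table carried a miR-203 symbol, so loss of the microRNA rests on the labels.

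No transcript of the BCL2 family or the IAPs passed the test between KO and WT cells. In the authors' deposited table, 0 of the 9 genes were called at q under 0.05, where 1.05% of all tested rows were, so a count of 0 among 9 genes is near that background. At an unadjusted p under 0.05 there was 1 gene, Bak1, against 6.00% of all tested rows. Of the 9 genes, 5 had the higher value in KO cells and 4 had the lower. Over the 18090 tested rows averaging at least 1 FPKM, 51.1% were higher. Scaling both groups to equal FPKM sums lowers log2(KO/WT) by 0.16 and gave 2 higher and 7 lower. With that scaling, only 16.7% of all rows averaging at least 5 FPKM were higher. Scaling by the median, which lowers log2(KO/WT) by 0.017, changed the direction of none of the 9 genes. The median log2((KO + 1)/(WT + 1)) of the 9 was 0.035, beside 0.0046 over the 18090 tested rows averaging at least 1 FPKM, and the 9 values ran from −0.18 for Bid to 0.34 for Bak1. Bad weighs on this summary, since it has a second row at the same locus. With that row, which has the higher mean, the split is 4 higher and 5 lower, the median is −0.035 and the lowest value is −1.15 for Bad. In size, the deposited log2 folds of 5 genes (Bcl2, Bcl2l1, Bak1, Bad and Bid) were above the median absolute log2 fold of rows at their own level in the authors' deposited table. By definition as many rows lie above such a median as below it, so 5 of 9 genes is near that share. The pooled values give no interval for any of the genes.

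**Figure D1:**
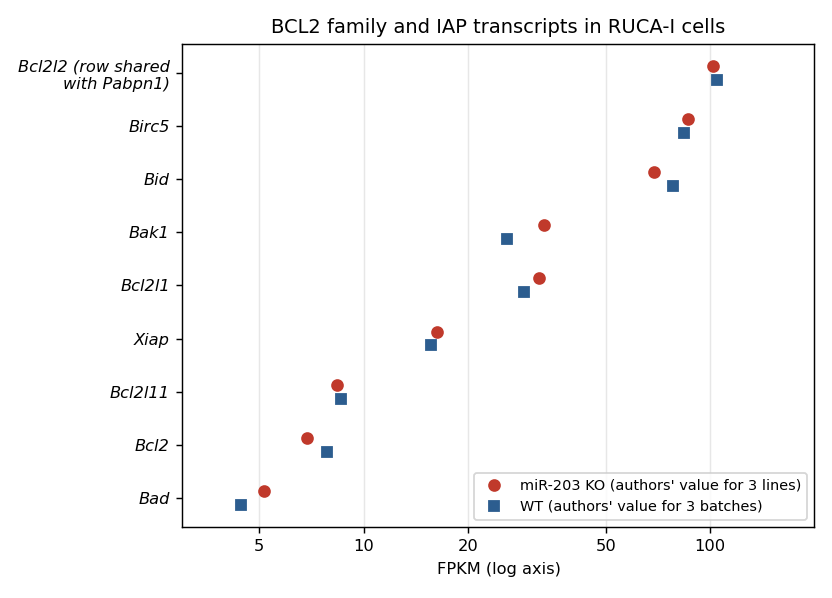
FPKM of the 9 genes (log axis), with the miR-203 KO value as a red circle above the WT value as a blue square; each point is the authors' single value for 3 samples. The levels run from about 5 FPKM for Bad to over 100 FPKM for the row of Bcl2l2, and the widest gap on this log axis among these rows is that of Bak1, at 33.1 FPKM in KO and 26.0 FPKM in WT cells.

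Among the inhibitors of the effectors, Bcl2l1 and Bcl2 had rows of their own, and neither passed the test. The Bcl2l1 row (rn6 chromosome 3, 148258860 to 148314152) stood at 32.0 FPKM in KO and 29.0 FPKM in WT cells, a ratio of 1.10 that turns to a log2 of −0.021 with equal FPKM sums, and the authors' deposited table gives q = 0.997. Bcl2, the founding member of the family (chromosome 13, 26600632 to 26770299), stood at 6.88 FPKM in KO and 7.84 FPKM in WT cells, a ratio of 0.877 and likewise q = 0.997 in the authors' deposited table. The Bcl2l1 level was 4.66 times that of Bcl2 in KO cells and 3.70 times in WT cells, on the FPKM scale, which is per length. Summed over both genes, the level was 38.9 FPKM in KO and 36.9 FPKM in WT cells.

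Bcl2l2 shared its row with Pabpn1, a gene for a nuclear poly(A)-binding protein, in a locus on chromosome 15 (33538412 to 33560301). That row had the highest level of the set, 102 FPKM in KO and 105 FPKM in WT cells, and a ratio of 0.975. How much of it is Bcl2l2 cannot be read from the table, so the level is not one of Bcl2l2 alone. The authors' deposited table gives p = 0.806 for it.

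The effector Bak1, which forms the pore in the outer mitochondrial membrane, had the smallest p of the set and the largest ratio among the main rows, while the second row of Bad was further apart as a ratio and Bid in FPKM. Its main row (chromosome 20, 5608911 to 5626270) stood at 33.1 FPKM in KO and 26.0 FPKM in WT cells, a ratio of 1.27. The authors' deposited table gives p = 0.0027 and q = 0.168, so it did not pass. A second Bak1 row, a locus of 356 bp beside the first, stood at 1.03 FPKM in KO and 0.645 FPKM in WT cells, with p = 0.356 in the authors' deposited table. Both rows had the higher value in KO cells. In all, 425 of the 26459 tested rows had a p as small as that of Bak1 or smaller, and the largest p among called rows was 0.0005 in the authors' deposited table.

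The other effectors did not share that direction. Bax, the partner of Bak1 that moves from the cytosol to mitochondria, stood at 36.6 FPKM in KO and 39.8 FPKM in WT cells, and the authors' deposited table gives q = 0.997. Bok, another effector, stood at 40.7 FPKM in KO and 42.5 FPKM in WT cells. Summed over Bak1, Bax and Bok, the level was 110 FPKM in KO and 108 FPKM in WT cells. The pooled values put Bak1 at 0.905 times the Bax level in KO cells and at 0.653 times in WT cells, though neither gene passed. Set against Bcl2l1, one of its inhibitors, Bak1 was at 1.03 times the level in KO cells and 0.896 times in WT cells. These ratios come from pooled values and were not tested.

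The BH3-only members lay far apart in level. Bid, which caspase-8 cleaves to link death receptors to mitochondria (chromosome 4, 153441963 to 153465198), stood at 68.7 FPKM in KO and 78.0 FPKM in WT cells, a ratio of 0.881 with p = 0.102 and q = 0.957 in the authors' deposited table. Bcl2l11, which binds all the anti-apoptotic members (chromosome 3, 120726992 to 120761501), stood at 8.36 FPKM in KO and 8.59 FPKM in WT cells, a ratio of 0.974. Bid was thus the most abundant of the BH3-only members in both groups, at 8.22 times the Bcl2l11 level in KO and 9.09 times in WT cells.

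Bad, which is kept inactive by phosphorylation downstream of survival signals, had 2 rows that went opposite ways. Both list the same locus on chromosome 1 (222194157 to 222207640), together with a row of Gpr137, so the longest locus does not choose between them and the first one listed was used. That first row stood at 5.16 FPKM in KO and 4.43 FPKM in WT cells, with p = 0.19 in the authors' deposited table. The second row stood at 2.85 FPKM in KO and 7.56 FPKM in WT cells, a ratio of 0.377, yet with p = 0.49 in the authors' deposited table. Summed, the 2 rows gave 8.01 FPKM in KO and 12.0 FPKM in WT cells. The direction for Bad therefore rests on which row is read, and neither passed.

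Among the IAPs, Birc5 and Xiap were nearly equal in the 2 groups. Birc5 (chromosome 10, 106855932 to 106864537) stood at 86.4 FPKM in KO and 84.3 FPKM in WT cells, a ratio of 1.02 with p = 0.76 in the authors' deposited table. Xiap (chromosome X, 128416844 to 128457191) stood at 16.3 FPKM in KO and 15.7 FPKM in WT cells, a ratio of 1.04 with p = 0.613 in the authors' deposited table. On the FPKM scale Birc5 was 5.30 times as abundant as Xiap in KO and 5.38 times in WT cells.

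By level, the order from the top was the row of Bcl2l2, Birc5, Bid, Bak1, Bcl2l1, Xiap, Bcl2l11, Bcl2 and Bad in KO cells. In WT cells it was the same but for Bak1 and Bcl2l1, which changed places. Those 2 genes lay within 1.03 times of each other in KO cells, and without values per sample no neighbours in the order can be said to differ beyond their spread. In both groups the first row of Bad was the lowest, at 0.75 times the Bcl2 level in KO and 0.565 times in WT cells.

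Each gene was set beside rows of its own level, to show the smallest change that the authors' test called there. Among rows within 2-fold of each gene's mean level (1828 to 5727 rows, depending on the gene), 1.27% to 1.58% were called in the authors' deposited table. The smallest called change in those windows was between 1.30-fold and 1.34-fold, and 0 of the 9 genes reached by its main row the smallest called change at its own level. Bak1, at 1.27-fold, came nearest among the main rows. Against the median absolute log2 fold in its window, Bak1 was at 0.35 beside 0.095, Bid at 0.18 beside 0.096, Bcl2 at 0.19 beside 0.13, Bcl2l1 at 0.14 beside 0.094 and Bad at 0.22 beside 0.17, all from the authors' deposited table. Bcl2l2, Bcl2l11, Birc5 and Xiap were under the median of theirs. By definition as many rows lie above the median of a window as below it, so this split is near that of all rows. No smaller change was called in these windows, which does not make smaller differences absent. Nor was every larger change called: the second row of Bad, at a ratio of 0.377, had q = 0.997 in the authors' deposited table.

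**Figure D2:**
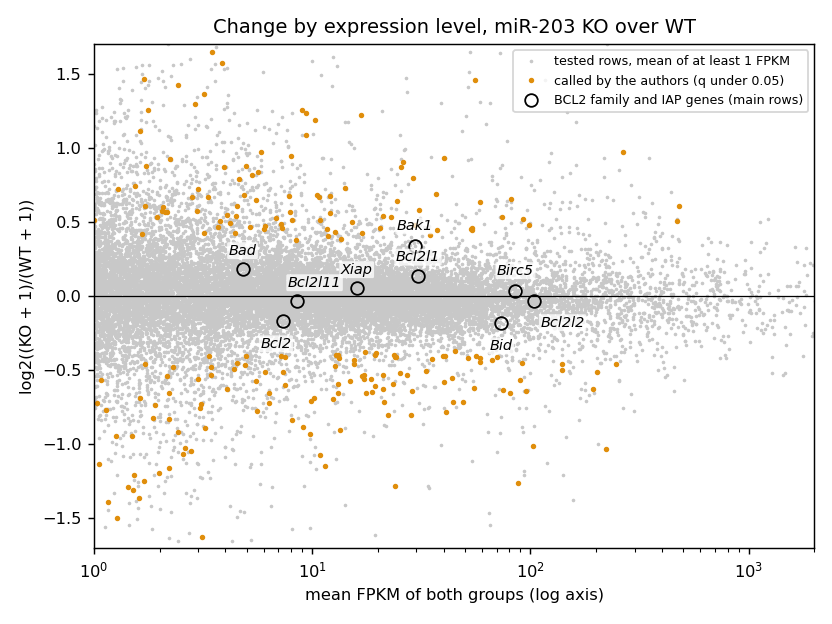
Log2((KO + 1)/(WT + 1)) against mean FPKM (log axis) for 18090 tested rows (grey), rows called by the authors (orange) and the main rows of the 9 genes (open circles); 124 rows lie outside the axes. Bak1 at 0.34 lies under the band of called rows of similar level, and the other 8 genes lie between −0.18 and 0.18.

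Genes that act with the set were read in 11 lists covering BCL2 proteins, IAPs and their antagonists, caspases, the apoptosome, caspase substrates, death receptors and turnover of BCL2 proteins. Beside the 9 genes these held 58 that averaged at least 1 FPKM. Some of the 58 had several tested rows, and each was read by the row of its longest locus alone. Outside the BH3-only list, how that choice bears on the list counts was not tested. None of the 58 was called at q under 0.05, where 1.33% of rows at that level were, and 3 had an unadjusted p under 0.05 in the authors' deposited table, where 6.60% of rows did. Of the 58, 34 were higher in KO cells and 24 lower, with a median log2((KO + 1)/(WT + 1)) of 0.022, where 51.1% of rows at that level were higher. With equal FPKM sums 14 were higher and 44 lower, where 16.7% of all rows averaging at least 5 FPKM were higher. The 3 were Pmaip1, Bcl2l14 and Mlkl. Bcl2l14 stood at 6.83 FPKM in KO and 5.01 FPKM in WT cells.

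Further BH3-only genes were Pmaip1, Bik and Bmf. Pmaip1 (NOXA), which binds Mcl1 and is induced by p53, stood at 30.5 FPKM in KO and 38.8 FPKM in WT cells, a ratio of 0.786, with p = 0.00195 and q = 0.134 in the authors' deposited table. That was the smallest p of all genes in these lists, and in the direction opposite to Bak1. Bik stood at 10.5 FPKM in KO and 12.1 FPKM in WT cells, and Bmf at 2.28 FPKM in KO and 1.75 FPKM in WT cells. Bbc3 (PUMA) had no tested row under its symbol. With Bid, Bad and Bcl2l11, 2 of the 6 were higher and 4 lower in KO cells, none was called and the median log2((KO + 1)/(WT + 1)) was −0.11, or 1 higher and 5 lower with a median of −0.19 with the second row of Bad.

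The IAP list held Birc2 and Birc3, ubiquitin ligases that act at TNF receptors, and the large IAP Birc6. Birc2 stood at 6.44 FPKM in KO and 6.28 FPKM in WT cells, Birc3 at 8.29 FPKM in KO and 6.88 FPKM in WT cells, and Birc6 at 21.4 FPKM in KO and 21.2 FPKM in WT cells. Birc3 had 8 tested rows, and only that of its longest locus was read. With Birc5 and Xiap, all 5 IAPs above 1 FPKM had the higher value in KO cells, where 51.1% of rows at that level did. With equal FPKM sums 4 of the 5 turned lower, and only 16.7% of all rows averaging at least 5 FPKM were higher, so that turn is near the background. None of the 5 passed, with the smallest q of 0.944 at Birc3 in the authors' deposited table. The median log2((KO + 1)/(WT + 1)) of the 5 IAPs was 0.035. Diablo (SMAC), which displaces IAPs from caspases, stood at 35.2 FPKM in KO and 35.5 FPKM in WT cells, and the protease Htra2 at 20.5 FPKM in KO and 20.9 FPKM in WT cells.

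Downstream of mitochondria, Apaf1 stood at 10.2 FPKM in KO and 8.99 FPKM in WT cells. The caspase list is not limited to steps downstream of mitochondria, since it holds Casp8, which cleaves Bid. Of the 6 caspases in the list, 4 were higher and 2 lower in KO cells, 0 were called, and the median log2((KO + 1)/(WT + 1)) was 0.067. Casp1, which processes interleukin-1 beta, stood at 38.5 FPKM in KO and 33.1 FPKM in WT cells and Casp12 at 35.9 FPKM in KO and 37.8 FPKM in WT cells. Casp2 shared its row with Tmem139, at 50.9 FPKM in KO and 48.5 FPKM in WT cells. The row of Cycs, cytochrome c, was a locus of 633 bp at 0.9995 FPKM in KO and 0.88 FPKM in WT cells, and was left out of the list counts by its low level.

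Of 6 genes of the apoptosome and mitochondrial release, Apaf1 among them, 4 were higher and 2 lower in KO cells, none was called and the median log2((KO + 1)/(WT + 1)) was 0.067. The outer membrane channel Vdac2, which binds Bak1, stood at 63.5 FPKM in KO and 66.6 FPKM in WT cells, and Vdac3 at 158 FPKM in KO and 157 FPKM in WT cells. Aifm1, an oxidoreductase of the space between the mitochondrial membranes, stood at 44.1 FPKM in KO and 40.3 FPKM in WT cells. Of 6 caspase substrates, 3 were higher and 3 lower in KO cells with a median of 0.0042. Parp1 among them stood at 81.4 FPKM in KO and 85.3 FPKM in WT cells, Lmna at 90.9 FPKM in KO and 90.1 FPKM in WT cells, and Acin1 at 74.5 FPKM in KO and 74.7 FPKM in WT cells.

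Death receptors and adaptors had 7 of 10 genes higher in KO cells, 3 lower and none called, with a median log2((KO + 1)/(WT + 1)) of 0.028. Tnfrsf1a, the receptor for TNF, stood at 21.1 FPKM in KO and 20.7 FPKM in WT cells, its adaptor Traf2 at 13.9 FPKM in KO and 12.3 FPKM in WT cells, and the necroptosis kinase Ripk3 at 55.5 FPKM in KO and 54.3 FPKM in WT cells. Fas and Mlkl are named because their values were seen. Fas, the receptor upstream of caspase-8 and Bid, stood at 1.31 FPKM in KO and 2.12 FPKM in WT cells, with p = 0.0667 in the authors' deposited table. Mlkl, which carries out necroptosis, stood at 5.88 FPKM in KO and 4.61 FPKM in WT cells, with p = 0.0176 and q = 0.559 in the authors' deposited table.

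Other BCL2-related genes were evenly split, with 7 of 13 higher and 6 lower in KO cells, none called and a median of 0.042. Tmbim6, an inhibitor of BAX-induced death in the endoplasmic reticulum, stood at 178 FPKM in KO and 182 FPKM in WT cells, and Mtch2, a mitochondrial receptor of BID, at 100.3 FPKM in KO and 97.4 FPKM in WT cells. Bnip2 shared its row with Gtf2a2, at 94.6 FPKM in KO and 88.6 FPKM in WT cells. For the regulators of MCL1 turnover, 4 of 6 were higher and 2 lower in KO cells, none called, with a median of 0.091. Huwe1, a ubiquitin ligase of MCL1, stood at 64.6 FPKM in KO and 75.8 FPKM in WT cells, March5 at 26.3 FPKM in KO and 24.3 FPKM in WT cells, and the deubiquitinase Usp9x at 8.78 FPKM in KO and 8.29 FPKM in WT cells.

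**Figure D3:**
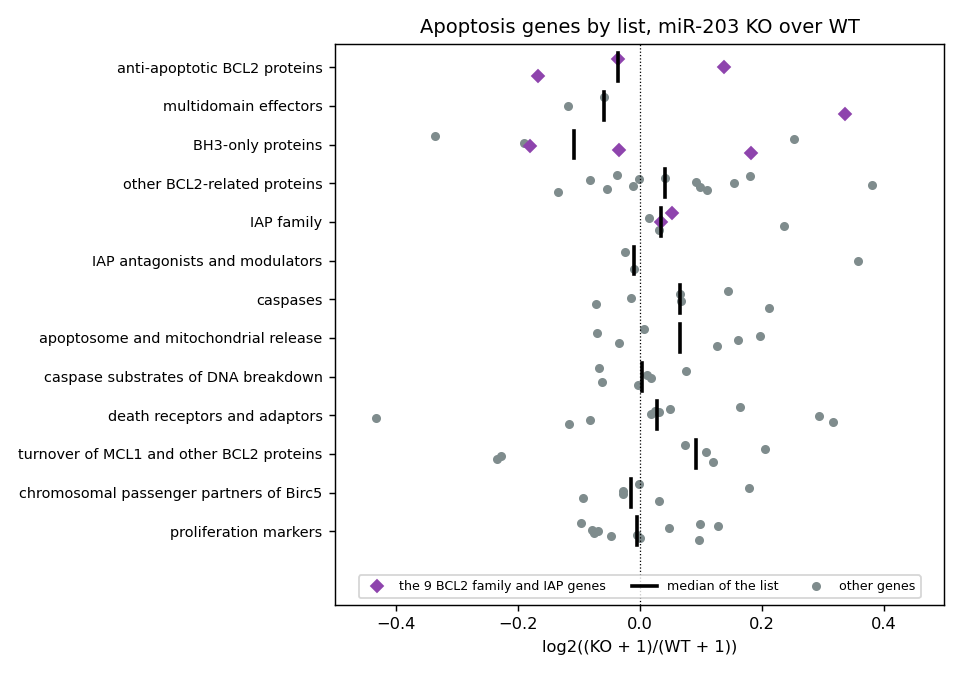
Log2((KO + 1)/(WT + 1)) of each gene averaging at least 1 FPKM, by list; purple diamonds are the 9 BCL2 family and IAP genes, grey points other genes and black bars list medians. Bad is drawn by its first row. All list medians lie between −0.11 and 0.091, and single genes reach −0.43 for Fas and 0.38 for Bcl2l14.

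Birc5 was read beside the genes it works with in mitosis, since its mRNA follows the cell cycle. Its partners in the chromosomal passenger complex stood close in both groups, Aurkb at 24.9 FPKM in KO and 24.4 FPKM in WT cells, Incenp at 47.4 FPKM in KO and 48.4 FPKM in WT cells, and Cdca8 (borealin) at 63.8 FPKM in KO and 65.0 FPKM in WT cells. The export receptor Xpo1, which binds survivin, stood at 101 FPKM in KO and 102 FPKM in WT cells. Of 11 proliferation markers, 5 were higher and 6 lower in KO cells, none was called and the median log2((KO + 1)/(WT + 1)) was −0.0052. Mki67 stood at 51.6 FPKM in KO and 49.9 FPKM in WT cells, Pcna at 212 FPKM in KO and 194 FPKM in WT cells, Mcm2 at 112 FPKM in KO and 118 FPKM in WT cells, and Mcm3 at 81.4 FPKM in KO and 86.0 FPKM in WT cells.

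Upstream sequence is shown for Birc5, read here beside cell cycle genes, and for Bak1, the gene with the smallest p of the set. Each is the 250 bases before the start in RefSeq on GRCr8, from the reference BN strain and not from RUCA-I cells. Capitals mark the letters TTTGAA, the core of the cell cycle homology region (CHR) of late cell cycle genes, and GGGCGG, the GC box bound by SP1 proteins, on either strand.
Birc5 (chr10:103571896-103572145, plus strand): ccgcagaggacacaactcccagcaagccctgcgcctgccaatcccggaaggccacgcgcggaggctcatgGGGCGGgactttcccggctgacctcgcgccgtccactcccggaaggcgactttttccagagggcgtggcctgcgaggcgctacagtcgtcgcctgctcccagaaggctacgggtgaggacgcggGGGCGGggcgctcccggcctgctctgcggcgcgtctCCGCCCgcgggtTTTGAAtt
Bak1 (chr20:5110975-5111224, minus strand): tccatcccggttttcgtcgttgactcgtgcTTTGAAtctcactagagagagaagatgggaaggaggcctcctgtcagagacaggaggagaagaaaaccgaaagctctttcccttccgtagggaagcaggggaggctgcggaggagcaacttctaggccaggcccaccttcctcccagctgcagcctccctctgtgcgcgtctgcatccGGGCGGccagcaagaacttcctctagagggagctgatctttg
Upstream of Birc5, TTTGAA begins 8 bases before the start, and GGGCGG or its reverse complement begins at 180, 56 and 20 bases before it. For Bak1 the same letters begin at 220 bases before the start for TTTGAA and at 42 for GGGCGG. Counting 50 bases past the start as well, 18.3% of 33469 promoters in the table held TTTGAA and 33.1% held GGGCGG on either strand, the 2 motifs not overlapping each other in these windows. Promoters were found for 9 of the 10 genes, with Mcl1 among them and Xiap missing. Of the 12 windows, 4 of which belong to Bcl2l1, 5 held TTTGAA and 7 held GGGCGG. Counted by gene, 4 of the 9 had TTTGAA and 7 had GGGCGG. A match is a run of letters and not a bound site.

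By position, Bcl2l1 lay in a stretch where most genes had the higher value in KO cells. Of the 50 nearest rows on chromosome 3 averaging at least 5 FPKM, all starting within 2.14 Mb of it, 42 were higher in KO cells, and their median log2((KO + 1)/(WT + 1)) was 0.21 beside 0.14 for Bcl2l1 itself. Over all 11294 rows at that level, 48.2% were higher. With equal FPKM sums 30 of the 50 were higher with a median of 0.058, where 16.7% of all rows at that level were higher. Bcl2l1 itself turned to −0.021, so whether it shares the direction of its neighbours rests on the scaling. With and without that scaling, the share of higher neighbours was above that of all rows. Bcl2l11, elsewhere on the same chromosome, had 37 of 50 neighbours higher with a median of 0.081, while its own value was −0.035. Scaled to equal FPKM sums, 12 of these 50 were higher with a median of −0.067, beside −0.18 for Bcl2l11. Around Bak1 on chromosome 20, 22 of 50 neighbours were higher, with a median of −0.022 beside 0.34 for Bak1. Scaled in the same way, 9 of these 50 were higher with a median of −0.17, beside 0.18 for Bak1. The part of these neighbourhoods in the values of single genes was not tested.

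**Figure D4:**
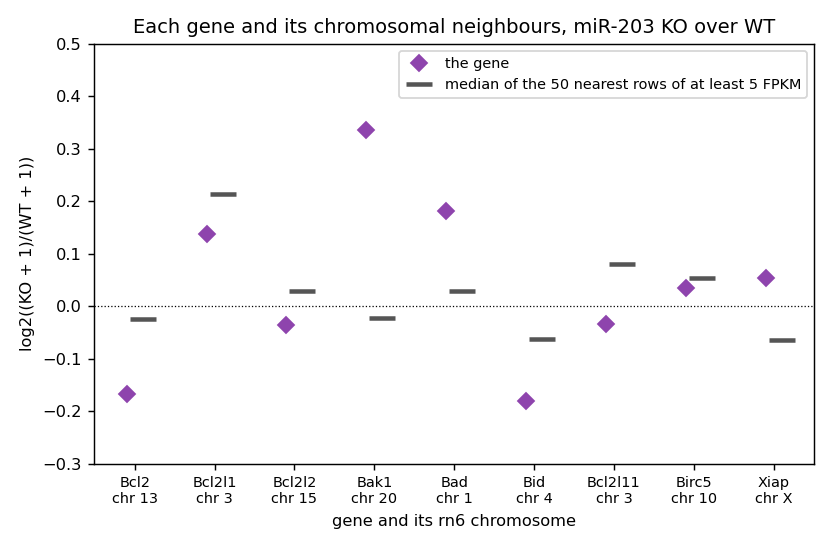
Log2((KO + 1)/(WT + 1)) of each of the 9 genes (diamond) and the median of the 50 nearest rows of at least 5 FPKM on its chromosome (bar). The neighbours of Bcl2l1 have the highest median, 0.21, and those of Bak1 lie at −0.022 while Bak1 itself is at 0.34.

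The label of an epithelial line was checked against markers. Of 8 epithelial markers, 7 had a tested row, from 79.2 to 419 FPKM in KO and from 75.8 to 501 FPKM in WT cells. They summed to 1397 FPKM in KO and 1399 FPKM in WT cells, and none was called. Single markers went opposite ways, and 3 of the 7 had an unadjusted p under 0.05 in the authors' deposited table, where 6.60% of rows averaging at least 1 FPKM did. Epcam stood at 419 FPKM in KO and 501 FPKM in WT cells (p = 0.0234 in the authors' deposited table), Krt8 at 241 FPKM in KO and 204 FPKM in WT cells (p = 0.0288) and Krt18 at 121 FPKM in KO and 103 FPKM in WT cells (p = 0.0379). The Krt8 row is a locus of 1000 bp, the longest of 3 rows with that symbol. The leukocyte marker Csf1r, the only 1 of 9 with a tested row, stood at 0.2004 FPKM in KO and 0.791 FPKM in WT cells. Both values are under the 1 FPKM set as the limit for the lists. Csf1r was called lower in KO cells in the authors' deposited table, where its q was 0.0187. Of 8 fibroblast markers only Col1a1 had a tested row, a fragment of 554 bp at 1.17 FPKM in KO and 1.43 FPKM in WT cells, and none of 5 endothelial markers had one. In bulk RNA, fewer cells of a type and less RNA per cell cannot be told apart.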

How the data were processed

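RNA of 3 miR-203 KO and 3 WT samples was sequenced with strand-specific dUTP libraries, per the labels' protocols. The submitters' processing notes list Cuffdiff 2.2.1.3, Cufflinks 2.2.1, TopHat 0.9 and build rn6, while the annotation and settings used are not stated in the sources read here. The deposited table holds FPKM, log2 fold change, test statistic, p-value and q-value, all made by the authors, with a single FPKM per group per the file headers. Its decimal commas were converted and ranges checked. Locus positions are as listed, and several rows can list the same locus.

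A gene was called at the authors' q under 0.05. From the deposited FPKM, log2((KO + 1)/(WT + 1)) was computed, with lists limited to genes averaging at least 1 FPKM; adding 1 shrinks the change of genes of low level. All 11 rows of the set had a deposited log2 fold within 0.001 of their FPKM ratio. Limma on values per sample had been planned and could not be run. Adjustment code was tested on simulated data. The members and lists were chosen with earlier results of these data known. Named genes are the members, called list genes, up to 3 others per list by level, and fixed partners; a 114 bp row of Gspt1 and others taken by the rule are not described. Some genes of the lists are not reported here and enter no list count. Bcl2l14, Fas, Krt18 and Mlkl were named after their values were seen. Python 3.11.15, pandas 2.3.3 and matplotlib 3.10.9 were used.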

Additional observations from a re-analysis of the deposited data

How the results depend on the processing

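The count of 0 called genes among the 9 was also 0 with q recomputed over rows averaging at least 1 or 5 FPKM. It was 0 as well at q under 0.10 and with the row of highest mean per symbol. Leaving out the row shared by Bcl2l2 and Pabpn1, an alternative added after seeing the data, could only give 0. That row was not called itself, so this alternative is no check of the count. At an unadjusted p under 0.05 the count was 1, by construction of the looser threshold. The 58 genes of the lists and those under 1 FPKM gave 0 calls in all 3 ways of adjusting.

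The FPKM sum was 1.12 times as high in KO as in WT cells, which is the 0.16 by which equal sums lower log2 ratios without a pseudocount. Relative to that shift the order of the genes is the same, but Bcl2l1 (−0.021), Birc5 (−0.13) and Xiap (−0.10) turn negative and Bak1 stands at 0.18. Scaling by the median instead, a KO over WT factor of 1.01, lowers log2 ratios without a pseudocount by 0.017. With it Bcl2l1 stood at 0.12, Birc5 at 0.019, Xiap at 0.038 and Bak1 at 0.32, all still higher in KO cells. The turn to negative values was thus seen with equal FPKM sums and not with scaling by the median. The median of the 9 genes is 0.035, and turned to −0.13 with equal FPKM sums, an alternative added after seeing the data, as was that for chromosomal neighbours, and to −0.035 with the row of highest mean. Bad turned negative with the second row at its locus (−1.15) and with its rows summed (−0.53). No other direction among the 64 values under alternatives changed, and of 42 list medians 1 did, that of MCL1 turnover at a minimum mean of 5 FPKM (−0.077). No paired analysis was possible because each group has a single pooled value; for the same reason the replicate block and leaving out replicates were not run.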
